A study of Homo sapiens with 6 samples.

Results

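Chemokine mRNAs were followed in Huh7, a human hepatocellular carcinoma cell line, after knockdown of CTSV. The members were 10 genes given by name, CXCL8, CXCL1, CXCL2, CXCL3, CXCL5, CXCL6, CXCL16, CX3CL1, CCL20 and CCL15, each with 1 entry among the 27394 gene names of the count table. The set was chosen by the large fall of CXCL8 between these same groups of libraries. The members' differences in that contrast are therefore given as descriptions. Where a member is said to have passed or missed the threshold of the fit over all genes, that also only describes it, and nothing is read from it. Of the 6 RNA-seq libraries, 3 carried a short hairpin RNA (shRNA) against CTSV, which encodes the lysosomal protease cathepsin V, and 3 carried a control shRNA. By genotype the labels call the first group CTSV knockdown and the second WT, and they describe both as established lines of Huh7. All cells were grown in DMEM with 10% fetal bovine serum. Neither the number and sequence of the shRNAs, nor the time after their introduction, nor whether a line was 1 clone or replicates were separate cultures is stated. The p-values below therefore rest on differences among libraries that may be technical repeats.

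Chemokines are small secreted proteins that guide leukocytes through G-protein-coupled receptors. CXCL8 and its neighbours CXCL1, CXCL2, CXCL3, CXCL5 and CXCL6 carry a glutamate-leucine-arginine motif before the CXC cysteines, bind CXCR2 (CXCL8 and CXCL6 also CXCR1) and attract neutrophils. In epithelial and liver cells their transcription is known to respond to the transcription factors NF-kB, AP-1 and C/EBP, and their mRNAs are short-lived because of AU-rich elements. CCL20 attracts CCR6-bearing lymphocytes and dendritic cells, and CCL15 attracts CCR1-bearing monocytes and neutrophils. CXCL16, the CXCR6 ligand, and CX3CL1, the CX3CR1 ligand, are made as membrane-anchored proteins and are shed by ADAM10 and ADAM17.

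The libraries held 16258803 to 18106207 counts. CTSV itself had 18.4, 16.0 and 16.3 CPM (counts scaled to library size, TMM-normalised) in the CTSV shRNA libraries, against 42.3, 44.5 and 41.0 CPM in the control libraries. The Huh7 label was checked against 10 hepatocyte-lineage markers, all of which reached 1 CPM. Their summed level was 41384.0 to 42443.7 CPM in CTSV shRNA libraries and 33863.3 to 34644.8 CPM in control libraries. Of 12 leukocyte markers, only the lysozyme gene LYZ and CD14 reached 1 CPM in any library, and 7, PTPRC among them, were not analysed here. The leukocyte sum was 56.7 to 62.1 CPM in CTSV shRNA libraries and 75.5 to 84.2 CPM in control libraries, nearly all of it LYZ, which fell (log2 fold change -0.42, SE 0.068, adjusted p = 4.8e-06, edgeR). Of 11 endothelial and stromal markers, 6 were in the table and VWF, CDH5, KDR, DCN and ACTA2 were not analysed here. The sum of the 6 was 80.8 to 87.6 CPM in CTSV shRNA libraries and 67.1 to 71.5 CPM in control libraries. The part of these shifts in the chemokine values was not tested.

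The 6 CXC genes lie together on chromosome 4, and the sequence before each start carries the same 9 letters. The stretches below are shown because this string was found before all 6 genes. The genes are also alike in other sequence, and whether the string bears on their levels was not tested. They are the 150 bases before the RefSeq start of each cluster gene and, for comparison, of CCL20. Each is printed 5′ to 3′ on the gene's strand (RefSeq, GRCh38.p14). The RefSeq start is not always the start of the gene as counted. The span of the counted gene holds all of the CXCL6 stretch and part of the CXCL8, CXCL5, CXCL3 and CXCL2 stretches. Capitals mark the motif matches described after them.
CXCL8, chr4:73740419-73740568, plus strand: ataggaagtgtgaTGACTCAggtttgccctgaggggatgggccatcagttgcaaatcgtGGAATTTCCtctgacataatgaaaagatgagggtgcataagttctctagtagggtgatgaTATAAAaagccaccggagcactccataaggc
CXCL6, chr4:73836528-73836677, plus strand: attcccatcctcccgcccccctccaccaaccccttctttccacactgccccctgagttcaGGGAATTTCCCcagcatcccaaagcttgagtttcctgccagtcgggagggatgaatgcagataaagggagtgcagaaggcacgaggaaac
CXCL1, chr4:73869243-73869392, plus strand: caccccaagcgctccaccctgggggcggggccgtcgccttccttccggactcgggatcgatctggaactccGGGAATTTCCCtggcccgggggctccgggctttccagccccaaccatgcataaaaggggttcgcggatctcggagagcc
CXCL5, chr4:73998678-73998827, minus strand: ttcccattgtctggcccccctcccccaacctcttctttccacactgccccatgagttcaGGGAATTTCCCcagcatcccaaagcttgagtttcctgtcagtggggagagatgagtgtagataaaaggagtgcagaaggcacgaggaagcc
CXCL3, chr4:74038690-74038839, minus strand: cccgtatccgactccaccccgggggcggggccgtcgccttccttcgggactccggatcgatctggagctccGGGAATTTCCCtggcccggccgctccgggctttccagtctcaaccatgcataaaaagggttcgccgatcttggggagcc
CXCL2, chr4:74099196-74099345, minus strand: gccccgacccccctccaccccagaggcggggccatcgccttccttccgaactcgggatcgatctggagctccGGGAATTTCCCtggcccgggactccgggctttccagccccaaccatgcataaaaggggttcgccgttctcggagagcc
CCL20, chr2:227813692-227813841, plus strand: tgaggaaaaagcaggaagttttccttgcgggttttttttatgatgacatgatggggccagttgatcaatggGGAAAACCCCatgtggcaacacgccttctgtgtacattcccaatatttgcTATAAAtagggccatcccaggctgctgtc

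The string GGAATTTCC, the core of a known NF-kB site in these promoters, was found in all 6 cluster promoters and in 0.472% of 27305 promoters of 300 bases (250 before to 50 after the start), with both strands searched. Promoters were found for 8 of the 10 members, all but CXCL16 and CX3CL1. In CXCL8 the string began 91 bases before the start, in CXCL5 90, in CXCL6 89, in CXCL1 and CXCL3 78 and in CXCL2 77. The longer NF-kB consensus motif overlapped that string in CXCL1, CXCL2, CXCL3, CXCL5 and CXCL6. It also matched CCL20, at other letters and on the opposite strand, but not CXCL8, and it matched 10.8% of all promoters. The AP-1 motif TGANTCA was found in CXCL8 alone of the 8, beginning 137 bases before its start, and in 7.76% of all promoters. TATAAA was found in CXCL8, CCL20 and CCL15 and in 12% of all promoters. The C/EBP motif searched, TTNNGNAAT, was found in none of the 8 and in 11.2% of all promoters. These are matches of letters in a short window, and a site with other letters would be missed.

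CXCL8, the main neutrophil chemokine of human epithelia, was far below its control level in knockdown cells. It had 9.01, 7.27 and 6.49 CPM in the CTSV shRNA libraries, against 42.8, 46.3 and 40.4 CPM in the control libraries. The raw counts behind these were 149, 120 and 118 in CTSV shRNA libraries and 764, 770 and 648 in control libraries. The highest knockdown library lay far below the lowest control library. The log2 fold change (CTSV shRNA over control shRNA) was -2.51, with a 95% interval from -2.75 to -2.28 and a level of 17.5% of control. CXCL8 (ENSG00000169429) lies on the plus strand of chromosome 4, from 73740506 to 73743716 on hg38, with 4 exons in its longest coding transcript. In bulk libraries such as these, fewer cells making a transcript and less of it per cell cannot be told apart. The authors' deposited table gives a log2 fold change of 2.52 for CXCL8, as control over knockdown.

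**Figure D1:**
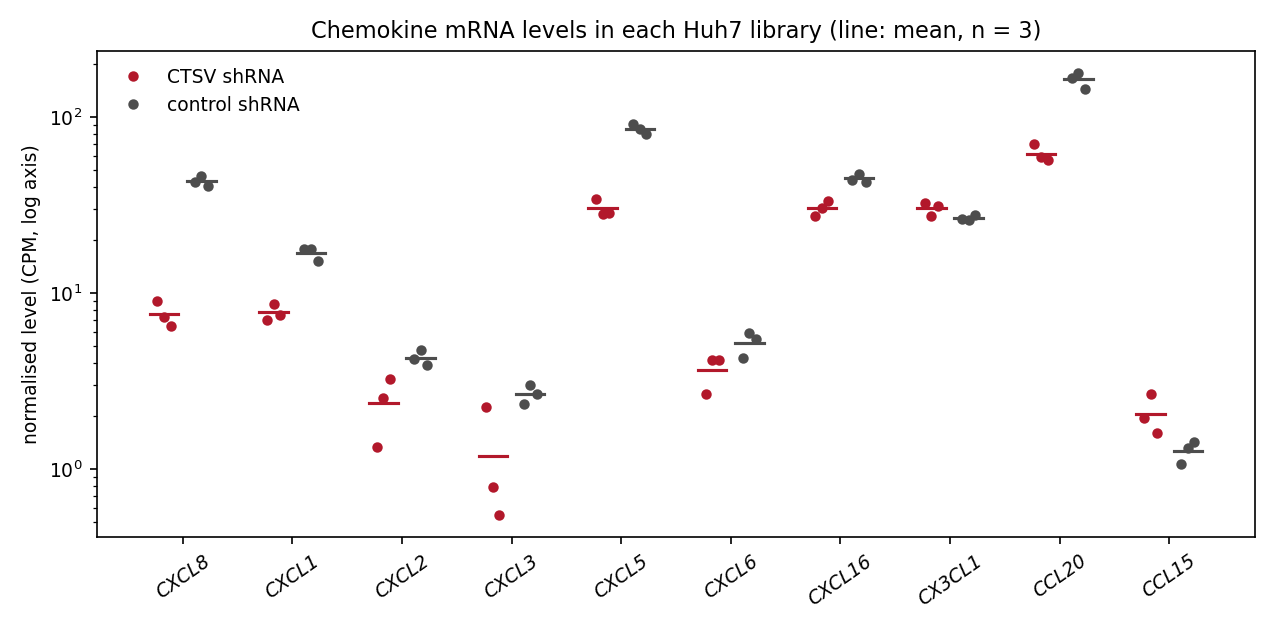
Normalised level (CPM, log axis) of the 10 chemokine genes in each library, CTSV shRNA in red and control shRNA in grey, with a line at the mean of 3. CXCL8 shows the widest gap, with 6.49 to 9.01 CPM in CTSV shRNA libraries and 40.4 to 46.3 CPM in control libraries, while CX3CL1 overlaps between groups.

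CXCL5 and CXCL1 were lower as well, by less than CXCL8. CXCL5, made by epithelia and best known as a neutrophil attractant, had 34.4, 28.1 and 28.5 CPM in CTSV shRNA libraries, against 90.9, 86.1 and 79.9 CPM in control libraries. Its log2 fold change was -1.50 (SE 0.0792), or 35.4% of control. CXCL1, a growth-regulated oncogene chemokine first found in melanoma cells, had 7.08, 8.66 and 7.54 CPM in CTSV shRNA libraries, against 17.7, 17.8 and 15.2 CPM in control libraries. Its log2 fold change was -1.12 (SE 0.139), or 45.9% of control. In both genes the groups did not overlap.

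CXCL2 and CXCL3, near copies of CXCL1, were low and moved unevenly between knockdown libraries. CXCL2 had 1.33, 2.54 and 3.25 CPM in CTSV shRNA libraries 1, 2 and 3, against 4.2, 4.75 and 3.92 CPM in control libraries (log2 fold change -0.85, SE 0.284). CXCL3 had 2.24, 0.788 and 0.55 CPM in CTSV shRNA libraries 1, 2 and 3, against 2.35, 3.01 and 2.68 CPM in control libraries (log2 fold change -1.17, SE 0.409). The knockdown library lowest in CXCL2 was thus the highest in CXCL3, close to the lowest control value. In raw counts, CTSV shRNA library 1 had 22 reads of CXCL2 (exact Poisson 95% interval 13.8 to 33.3) and CTSV shRNA library 3 had 59 (44.9 to 76.1). For CXCL3 the counts were 37 (26.1 to 51.0) in CTSV shRNA library 1 and 10 (4.80 to 18.4) in CTSV shRNA library 3. These intervals cover counting error only. The coding sequences of CXCL2 and CXCL3 share 94.4% of aligned bases, with an identical run of 97 bases, and CXCL1 shares 93.5% with CXCL2 and 90.7% with CXCL3. How the authors' counting treated reads that match several genes is not stated, so the split between these genes is uncertain. The 2 genes summed had 59, 55 and 69 reads in CTSV shRNA libraries, against 117, 129 and 106 in control libraries. In the CTSV shRNA libraries the sum was steadier than either gene, with 3.57 ± 0.235 CPM. In control libraries it was 6.97 ± 0.682 CPM (SD, n = 3 each). Its log2 fold change was -0.97 (SE 0.205). The log2 fold change of CXCL2 was -0.57 without CTSV shRNA replicate 1 and -0.77 without control replicate 2, and did not then pass the edgeR threshold. The log2 fold change of CXCL3 was -2.00 without CTSV shRNA replicate 1, and passed, but was -0.96 without CTSV shRNA replicate 2, -0.82 without CTSV shRNA replicate 3 and -1.09 without control replicate 2, none of which passed.

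**Figure D2:**
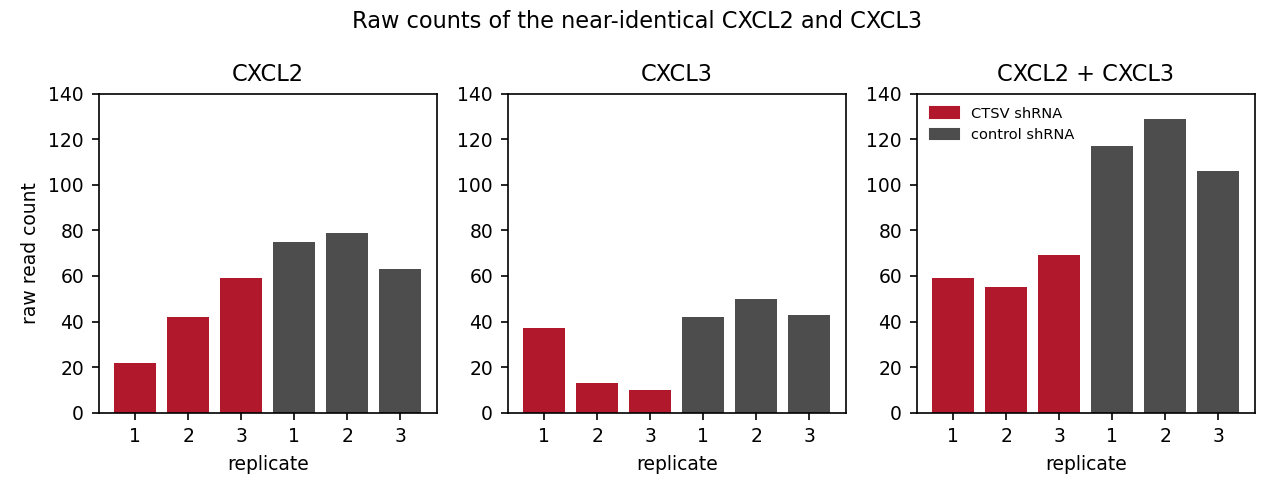
Raw read counts of CXCL2, of CXCL3 and of their sum in each library, CTSV shRNA in red and control shRNA in grey. The sum is 55 to 69 reads in the CTSV shRNA libraries and 106 to 129 in the control libraries, more even within a group than either gene in the CTSV shRNA libraries.

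CXCL6, the gene next to CXCL8, differed least within the cluster. It had 2.66, 4.18 and 4.18 CPM in CTSV shRNA libraries, against 4.26, 5.90 and 5.48 CPM in control libraries. The groups did not overlap, though the highest CTSV shRNA value lay just under the lowest control value. Its log2 fold change was -0.50, with a 95% interval from -0.98 to -0.02, and did not pass the edgeR threshold, which it did without control replicate 1 (log2 fold change -0.63). Its coding sequence shares 87.4% of bases with CXCL5, and it overlaps the pseudogene PPBPP1 on the same strand by 964 bases.

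Among the other members, CCL20 and CXCL16 were lower and CX3CL1 and CCL15 were not. CCL20 had 70.1, 59.2 and 56.9 CPM in CTSV shRNA libraries, against 167.7, 178.4 and 144.7 CPM in control libraries, with a log2 fold change of -1.40 (SE 0.0707) and no overlap. It lies on chromosome 2, away from the cluster. CXCL16, on chromosome 17, had 27.4, 30.5 and 33.5 CPM in CTSV shRNA libraries, against 44.2, 47.2 and 43.0 CPM in control libraries (log2 fold change -0.56, SE 0.0875). It overlaps MED11 on the opposite strand by 85 bases, and strand use in counting is not stated. CX3CL1, on chromosome 16, had 32.7, 27.4 and 31.1 CPM in CTSV shRNA libraries, against 26.2, 25.9 and 27.7 CPM in control libraries. These groups overlapped, with a log2 fold change of 0.19 (95% interval 0.00 to 0.39). CCL15 had 32, 44 and 29 reads in CTSV shRNA libraries, against 19, 22 and 23 in control libraries, a log2 fold change of 0.69 with a 95% interval from -0.09 to 1.48. The CCL15 groups did not overlap, with the CTSV shRNA libraries higher, but the value is uncertain because the gene shares 5182 bases on the same strand with the CCL15-CCL14 readthrough gene. CCL14, too low to be tested, had 21, 7 and 2 reads in CTSV shRNA libraries, against 1, 0 and 0 in control libraries.

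By the edgeR quasi-likelihood threshold (adjusted p under 0.05), 7 of the 10 members passed, all 7 lower and 0 higher, beside 40.3% of tested genes in either direction, 21.6% of 15968 tested genes lower and 18.7% higher. At an unadjusted p under 0.05, and with DESeq2, the number higher was also 0. Without overlap between groups, 8 members were lower, beside 25.0% of tested genes, and 1 was higher, beside 24.1%. The median log2 fold change was -0.98 over the members and 0.02 over all tested genes.

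The make-up of the chemokine mRNA pool differed between groups. Levels were divided by the summed exon length of each gene in GENCODE release 29, as CPM per kilobase (kb), so that genes can be set beside each other. That length joins the exons of all annotated transcripts and can exceed the length of the transcript made. For CX3CL1 it was 5983 bases, where the longest coding transcript has 1209 coding and 2009 3′ untranslated bases. Shares and orders between genes rest on this choice of length. The 6 cluster genes summed to 26.1, 24.9 and 24.2 CPM per kb in CTSV shRNA libraries, against 74.1, 75.2 and 67.3 CPM per kb in control libraries. CXCL8 made up 15.2%, 12.8% and 11.8% of that sum in CTSV shRNA libraries, against 25.4%, 27.1% and 26.4% in control libraries. The CXCL8 shares did not overlap between groups, but the set was chosen by the fall of CXCL8, so nothing is read from this. The CXCL5 share was 47.6% ± 3.96 in CTSV shRNA libraries and 46.7% ± 1.6 in control libraries, and that of CXCL1 was 23.9% ± 2.95 in CTSV shRNA libraries and 18.0% ± 0.529 in control libraries (SD, n = 3 each). The CXCL6 share was 4.67%, 7.68% and 7.91% in CTSV shRNA libraries, against 2.63%, 3.59% and 3.73% in control libraries. It did not overlap either, with a ratio of means of 2.04. The level of CXCL6 was itself lower, at 1.68 CPM per kb in CTSV shRNA libraries and 2.39 in control libraries. Its share is larger because the sum fell by more. Per length there was thus more CXCL1 than CXCL8 in every CTSV shRNA library, by a ratio of 1.38, 2.09 and 2.04, against 0.726, 0.672 and 0.661 in control libraries. The ratio of CCL20 to CXCL5 overlapped between groups, at 3.26 ± 0.0862 in CTSV shRNA libraries and 3.04 ± 0.227 in control libraries (SD, n = 3 each).

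**Figure D3:**
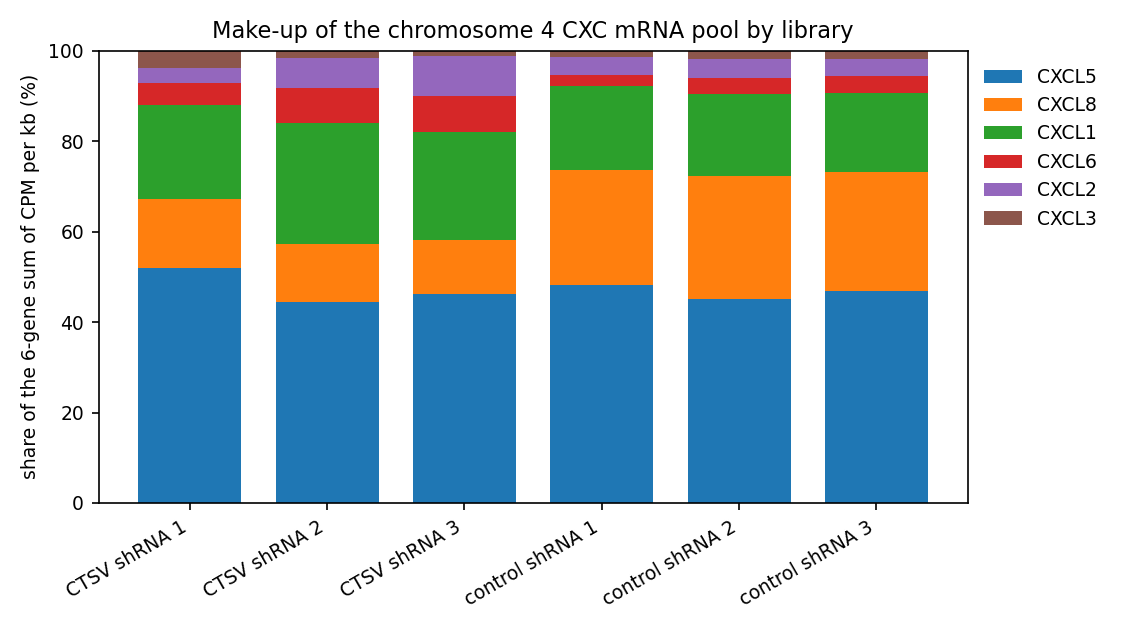
Share of each CXC gene in the sum of CPM per kb over the 6 cluster genes, 1 bar per library, CTSV shRNA libraries left of control libraries. The CXCL8 share is 11.8% to 15.2% in CTSV shRNA libraries and 25.4% to 27.1% in control libraries, while CXCL5 makes up the largest share in each library.

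In order of level per length, the knockdown libraries ran CCL20 (39.0 CPM per kb), CXCL5 (11.9), CXCL16 (10.9), CXCL1 (5.99), CX3CL1 (5.08), CXCL8 (3.34), CXCL6 (1.68), CXCL2 (1.58), CCL15 (1.33) and CXCL3 (0.536). The ranges of CXCL5 and CXCL16 met, as did those of CXCL1 and CX3CL1, of CXCL6 and CXCL2, and of CXCL2 and CCL15. The control libraries ran CCL20 (102.6 CPM per kb), CXCL5 (33.7), CXCL8 (19.0), CXCL16 (16.0), CXCL1 (13), CX3CL1 (4.45), CXCL2 (2.86), CXCL6 (2.39), CXCL3 (1.21) and CCL15 (0.814), and only the ranges of CXCL2 and CXCL6 met. CXCL8 thus stood below CXCL16, CXCL1 and CX3CL1 in the knockdown libraries and above all 3 in the controls.

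On chromosome 4, the tested neighbours of the chemokine genes included genes that fell and genes that rose. The window taken ran from 1 Mb before CXCL8 to 1 Mb after CXCL2, and held 14 tested neighbours that are not members, of which 2 fell, 5 rose and 7 were not called. That is 7 of 14 called, near the 40.3% called over all tested genes (21.6% fell and 18.7% rose). EREG and AREG, which encode the EGF receptor ligands epiregulin and amphiregulin, fell (log2 fold change -0.84, SE 0.0802, and -0.83, SE 0.156, adjusted p = 1.04e-10 and 4.31e-05, edgeR). EREG had 38.5, 35.6 and 33.2 CPM in CTSV shRNA libraries, against 70.1, 59.6 and 61.6 CPM in control libraries. BTC, the betacellulin gene, was at 4.76 ± 0.30 CPM in CTSV shRNA libraries and 4.58 ± 0.319 CPM in control libraries (SD, n = 3 each), and was not called. Between the chemokines and EREG, the folate enzyme gene MTHFD2L was not called (log2 fold change 0.14). On the other side, the nearest tested gene, RASSF6, was not called (0.38), and the albumin-family genes AFM (1.06), AFP (0.44) and ALB (0.22) rose. The rise of AFM was not called without control replicate 2 or without CTSV shRNA replicate 2 or 3. PARM1, which encodes a membrane mucin-like protein, rose (1.46), with 52.8, 53.3 and 54.0 CPM in CTSV shRNA libraries, against 15.7, 17.3 and 25.3 CPM in control libraries, and so did LINC02562 (1.03). COX18, ANKRD17, HMGA1P2 and AC053527.1 were not called.

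**Figure D4:**
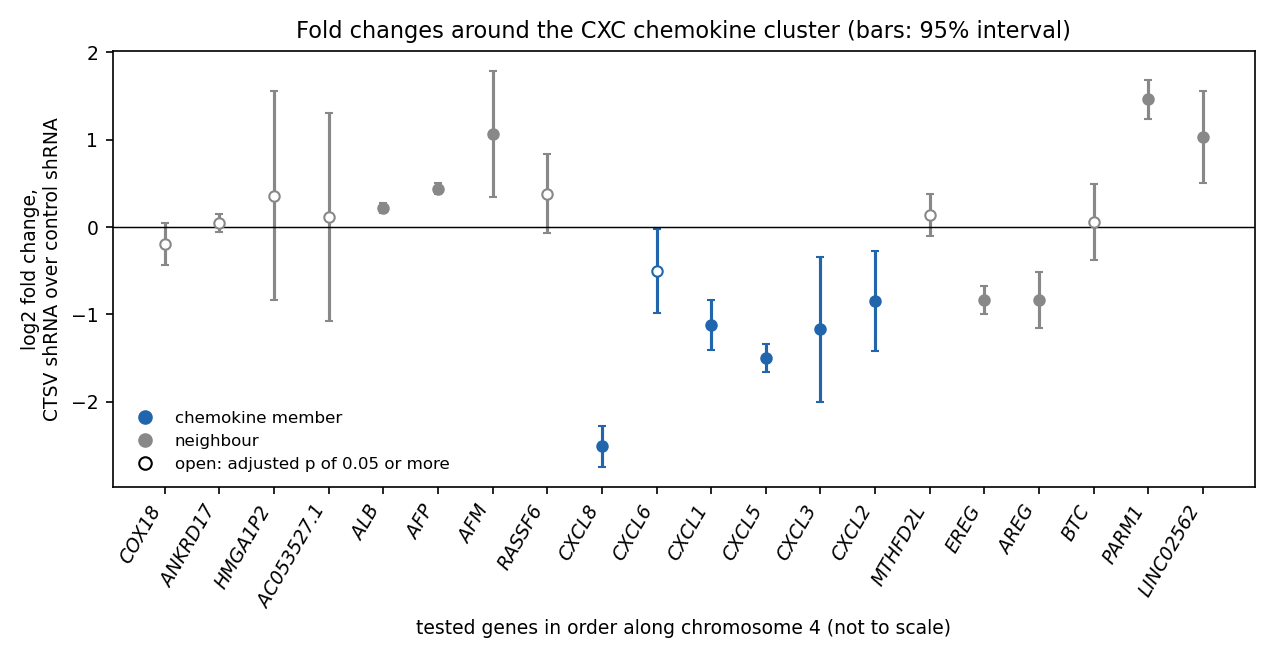
Log2 fold change (CTSV shRNA over control shRNA) with its 95% interval for each tested gene from 1 Mb before CXCL8 to 1 Mb after CXCL2, in order along chromosome 4. Chemokine members are blue and neighbours grey, and open points did not pass the edgeR threshold. CXCL8 is at -2.51, the other 5 chemokines lie between -1.50 and -0.50, EREG and AREG at -0.84 and -0.83, and PARM1 at 1.46.

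AU-rich elements were counted as the pentamer ATTTA in the 3′ untranslated region of 1 coding transcript per gene. CXCL2 held 10 in 721 bases (13.9 per kb), CXCL3 10.4 per kb, CXCL8 9 in 1252 bases (7.19 per kb), CXCL1 7.08, CCL20 6.65, CXCL5 5.51 and CXCL6 5.36 per kb. CXCL16 held 1 (1.02 per kb), CX3CL1 2 (0.996 per kb) and CCL15 none. The median over 11722 tested genes was 1.73 per kb. Over the 10 members, Spearman's rho between this density and the log2 fold change was -0.66. It is a description across genes that are in part copies of one another, and it includes CXCL8, by whose fall the set was chosen. The members with few pentamers, CXCL16, CX3CL1 and CCL15, had log2 fold changes of -0.56, 0.19 and 0.69. Among the others, CXCL2, the densest, had -0.85, against -2.51 in CXCL8 and -1.50 in CXCL5. The order of density was thus not that of the falls among them. Over all genes with at least 8 pentamers per kb, 23.9% of 264 fell, beside 26.4% of the other genes. The median log2 fold changes of these 2 classes were -0.05 and -0.03, in that order. Of the members, only CXCL2 and CXCL3 are in the denser class. CXCL8, CXCL1, CCL20 and CXCL5 lie below its limit, so the share in that class does not describe genes of their density.

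The summed level of the receptor genes was 21.7 to 24.1 CPM in CTSV shRNA libraries and 20.7 to 23.8 CPM in control libraries. Of 13 tested receptor genes, 0 were called by edgeR or DESeq2, beside 40.3% of all tested genes called by edgeR. At an unadjusted p under 0.05 in edgeR there was 1. Only 9 of 23 listed receptor genes reached 1 CPM in any library. CCR1 was at 6.43 ± 1.28 CPM in CTSV shRNA libraries and 5.54 ± 0.218 CPM in control libraries, and CCRL2, an atypical receptor that binds chemerin, was at 4.95 ± 0.931 and 5.85 ± 1.13 CPM (SD, n = 3 each). CXCR1 and CXCR2, the CXCL8 receptors, were not analysed here. Beyond the members, the other tested ligands CXCL10, CXCL12, CCL28 and XCL1 were all under 2.1 CPM on average in both groups and were not called. In all, 14 of 46 listed ligands were tested. By the edgeR threshold 7 were lower and 0 higher, beside 21.6% and 18.7% of all tested genes. All 7 are members of the set chosen by the fall of CXCL8, so nothing is read from their number.

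The NF-kB pathway genes that were called mostly fell, by less than CXCL8. Of 20 tested subunits, kinases and inhibitors, 11 fell, 2 rose and 7 missed the threshold (median log2 fold change -0.26), beside 21.6% of all tested genes that fell and 18.7% that rose. RELB, a subunit of the noncanonical pathway, had 8.89, 6.06 and 6.49 CPM in CTSV shRNA libraries, against 13.3, 17.2 and 14.1 CPM in control libraries (log2 fold change -1.06, SE 0.156, adjusted p = 8.99e-07, edgeR). The inhibitor NFKBIE (-0.97) and TNIP1, a partner of A20 (-0.72), fell, as did NFKB1 (-0.44), NFKB2 (-0.49), RELA (-0.33) and NFKBIA (-0.25). The fall of NFKBIA was not called without control replicate 2 or 3, or without CTSV shRNA replicate 2 or 3. NFKBIZ, an atypical nuclear IkB protein, rose (0.49), with 131.9, 130.5 and 128.7 CPM in CTSV shRNA libraries, against 96.9, 91.3 and 90.5 CPM in control libraries. The kinase gene IKBKB, named here after its value was seen, also rose (0.33). It was at 65.5 ± 6.08 CPM in CTSV shRNA libraries and 52.3 ± 3.71 CPM in control libraries (SD, n = 3 each).

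Most tested AP-1 and C/EBP genes fell. Of 20, 14 fell, 0 rose and 6 missed the threshold (median log2 fold change -0.57), where 21.6% of all tested genes fell and 18.7% rose. CEBPB, which is known to act on the CXCL8 promoter, was at 26.4 ± 3.20 CPM in CTSV shRNA libraries and 51.6 ± 3.65 CPM in control libraries (SD, n = 3 each; log2 fold change -0.97, SE 0.0904, adjusted p = 5.74e-11, edgeR). CEBPG (-0.60), JUN (-0.45), ATF3 (-0.96) and the small MAF genes MAFF (-1.10) and MAFK (-0.65) fell. FOSL1 was at 1.30 ± 0.693 CPM in CTSV shRNA libraries and 2.51 ± 0.726 CPM in control libraries (SD, n = 3 each) and missed the threshold (adjusted p = 0.0536, edgeR), with adjusted p from 0.00904 to 0.189 when 1 library was left out (log2 fold change -1.46 to -0.68).

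The main inflammatory cytokines were at or near 0. IL1A, IL1B, IL6 and TNF, classic inducers or companions of CXCL8, had 0 to 8 reads in any library and were not tested. Of 21 tested cytokine, receptor and adaptor genes, 9 fell, 4 rose and 8 missed the threshold (median -0.10), against 21.6% and 18.7% of all tested genes, so that the number that rose was near the share over all genes. The TNF receptor gene TNFRSF1A (-0.52), the shared IL-6 receptor subunit IL6ST (-0.57), the oncostatin M receptor OSMR (-0.31), the IL-1 receptor kinase IRAK2 (-0.71), CSF1 (-0.78) and IL32 (-0.91) fell. The 4 that rose, named here after their values were seen, were the receptor genes IL1R1 (0.37), IL6R (0.53) and IL17RC (0.49) and the adaptor gene TRAF6 (0.41).

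**Figure D5:**
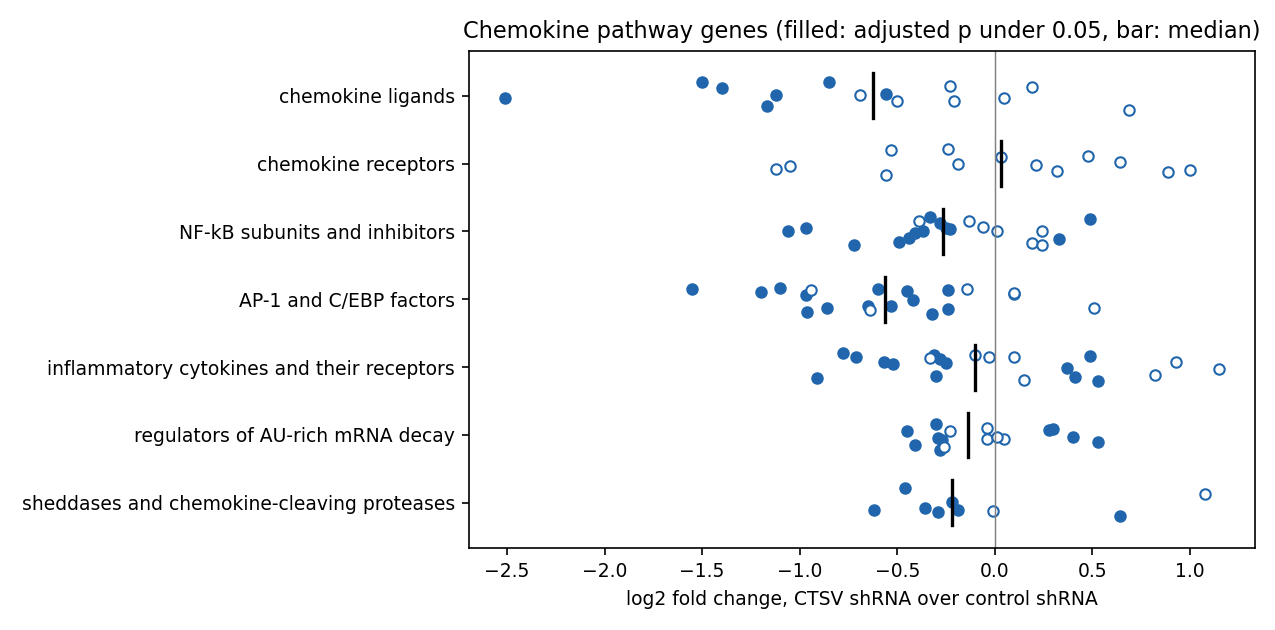
Log2 fold changes (CTSV shRNA over control shRNA) of all tested genes in 7 lists, 1 point per gene, filled where the edgeR adjusted p is under 0.05, with a bar at the list median. Medians are -0.62 for ligands, 0.03 for receptors, -0.26 for NF-kB genes, -0.57 for AP-1 and C/EBP genes, -0.10 for cytokines and their receptors, -0.14 for AU-rich decay regulators and -0.22 for sheddases and cleaving proteases.

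Of 16 tested regulators of AU-rich mRNA, 6 fell, 4 rose and 6 missed the threshold (median -0.14), beside 21.6% of all tested genes that fell and 18.7% that rose. The stabilising protein gene ELAVL1 (-0.41), KHSRP (-0.29), HNRNPD (-0.28) and YBX1 (-0.45) fell, while TIA1 (0.53) and TIAL1 (0.40), which encode translation silencers, rose. ZFP36, whose product tristetraprolin destabilises CXCL8 mRNA, was at 13.8 ± 0.667 CPM in CTSV shRNA libraries and 14.2 ± 1.10 CPM in control libraries (SD, n = 3 each) and was not called. Of 9 tested sheddases and chemokine-cleaving proteases, 6 fell, 1 rose and 2 missed the threshold, beside those same background shares of 21.6% and 18.7%. ADAM17 (-0.46) and ADAM10 (-0.22), the sheddases of CX3CL1 and CXCL16, ADAM9 (-0.36), RHBDF2 (-0.62), which supports ADAM17 maturation, and MMP14 (-0.19) fell. The fall of MMP14 was not called without CTSV shRNA replicate 3 (-0.13) or control replicate 1 (-0.17). DPP4, which trims chemokine ends, rose (0.64), with 234.0, 223.0 and 232.4 CPM in CTSV shRNA libraries, against 144.1, 134.9 and 164.1 CPM in control libraries.

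Among the genes whose profile over the 6 libraries lay nearest to that of CXCL8 were S100A9, NUPR1, GDF15, TESC and RASD1, from nearer to farther. Likeness was the Euclidean distance between log2 CPM values centred on each gene's own mean, and it ran from 0.777 for S100A9 to 0.933 for RASD1. S100A9, a calcium-binding alarmin, had a log2 fold change of -1.93, the stress regulator gene NUPR1 -1.91 and GDF15, which encodes a stress-induced secreted cytokine, -1.85. GDF15 was at 26.4 ± 0.895 CPM in CTSV shRNA libraries and 95.1 ± 7.96 CPM in control libraries (SD, n = 3 each). Among the members, CXCL5 ranked 17, CCL20 ranked 20 and CXCL1 ranked 59 of 12904 genes by the same distance, and CX3CL1 ranked 8963. Since the distance is taken over both groups, it rests mostly on the difference between them.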

How the data were processed

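RNA-seq counts of 3 CTSV shRNA and 3 control shRNA libraries of Huh7 cells were used. Raw whole-number counts per gene were deposited by the authors, and HISAT2, StringTie and SAMtools with hg38 were used upstream, per the submitters' processing notes. Counting tool, annotation and strand use: not given in the sources used here. Log2 fold changes (control over knockdown, by their sign) and p-values of the authors stand in the same deposited table. Of 28915 entries, 1521 were copies of another entry under the same name and were removed, leaving 27394 names.

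Counts were tested with edgeR 4.0.16 in R 4.3.3 (quasi-likelihood test, TMM, filterByExpr, Benjamini-Hochberg adjustment over 15968 genes, called at 0.05), checked on simulated data. The CTSV shRNA group is on top in every fold change, and outside the members only called genes are said to have risen or fallen. Within a group no library pair was a duplicate, with chi-square per degree of freedom of at least 3.55. Exon lengths and transcripts came from GENCODE release 29 and promoters from RefSeq (GRCh38.p14). Members and lists were chosen with earlier results of these data known. Named genes were CTSV, the members, all tested genes of the chromosome 4 window, the 6 called genes of smallest adjusted p per list, listed key factors and the 6 nearest profiles, 1 of which is not reported here; other genes named are listed ligands, receptors and markers, picked after their values were seen. Alternatives were RLE size factors, 2 other low-count filters, a replicate block, DESeq2 1.42.0, all entries kept and each library left out, and, added after the data were seen, CXCL2 and CXCL3 summed and mitochondrial genes left out.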

Additional observations from a re-analysis of the deposited data

How the results depend on the processing

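Under the alternatives, 126 of 132 member values kept their direction and their side of the threshold (for CXCL8, a value within the spread of its replicates), and no member reversed. Each exception came from leaving out 1 library. The log2 fold change of CXCL2 ranged from -1.14 to -0.57, with the call lost without CTSV shRNA replicate 1 or control replicate 2. That of CXCL3 ranged from -2.00 to -0.82, lost without CTSV shRNA replicate 2 or 3 or control replicate 2. That of CXCL6 ranged from -0.63 to -0.32, and passed without control replicate 1. CXCL8 ranged from -2.65 to -2.40. Among receptors, 0 to 1 genes were called with 1 library left out (CXCR6, without CTSV shRNA replicate 2), and 1 (CCR3) where a mean level of 1 CPM was required. Genes not called whose sign turned with 1 library left out were AC053527.1 (-0.31 to 0.70), HMGA1P2 (-0.22 to 0.71) and ZFP36 (-0.10 to 0.02). The labels do not say whether replicate numbers pair the samples. No effect shared by equal numbers was seen (correlations of deviations -0.0122, -0.00253 and 0.0212). The number of genes called over all was 6486 with a replicate block and 6433 without it. In both, 7 members were called, and the block changed no member's call. With 3 libraries a group, genes under about 100 reads, such as CXCL2, CXCL3, CXCL6 and CCL15, have wide intervals.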
